A study of Mus musculus with 20 samples.

Results

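The ligands of the tumour necrosis factor (TNF) superfamily were measured in mouse CD4+ T cells that lacked or kept Pcbp2, an RNA-binding protein. The set held 10 ligands that activated or resting T cells are known to make: Tnf, Lta, Ltb, Fasl, Cd40lg, Tnfsf4, Tnfsf8, Tnfsf10, Tnfsf11 and Tnfsf14. They were taken by their Ensembl identifiers from a table of 49315 gene IDs, and all 10 were found. All 10 also passed the filter on low counts, which left 28082 genes for testing. The rule goes by gene name and uses no measured value, though the members were chosen with earlier results of these data known.

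Most TNF ligands are membrane proteins that act as trimers, on the cell that makes them or after being shed, and bind receptors of the TNF receptor superfamily on other cells. T cell activation through the antigen receptor is known to switch on several of them. Some signal inflammation through NF-kB (Tnf, Lta, Ltb), some can trigger death of the receptor-bearing cell (Fasl, Tnfsf10), and others carry T cell help or costimulation (Cd40lg, Tnfsf4, Tnfsf8, Tnfsf14). Several of their mRNAs are short-lived because proteins bind AU-rich elements in the 3′ untranslated region (UTR), whereas Pcbp2 itself is known to bind cytosine-rich RNA.

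The 20 RNA sequencing libraries came from sorted splenic CD4+CD25- T effector cells with a stated purity above 99%. CKO cells (genotype Fl-Pcbp2/CD4cre) were sequenced after 6 h with CD3/CD28 activator beads (n = 3), as were CTL cells (Fl-Pcbp2) after the same 6 h (n = 5). CKO cells at 0 h (n = 6) and CTL cells at 0 h (n = 6) had no culture. All mice thus carried the floxed Pcbp2 gene, and Cre under the Cd4 promoter is known to act during thymic development, in the precursors of both CD4 and CD8 T cells. The question was which genes differ with loss of Pcbp2 before and after activation. The labels call the controls littermates and give no age. They do not tie libraries to animals, so p-values measure the spread between these libraries. Beads, time and culture changed together between 0 h and 6 h and cannot be told apart. In bulk RNA, fewer cells of a type cannot be told apart from less RNA per cell.

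Library totals ran from 26427467 to 85608113 counts, the lowest being the CTL 6 h library 4.24 and the next lowest 62402807. Pcbp2 averaged 8.72 ± 2.24 CPM (counts relative to the TMM-scaled library total) in CKO and 322 ± 34.5 CPM in CTL cells at 6 h, and 16.98 ± 3.39 CPM in CKO and 333 ± 46.9 CPM in CTL cells at 0 h (SD). All CKO 0 h libraries were labelled male, whereas each of the other groups held both labels, so labelled sex and group overlap in part. The CKO 0 h libraries 4.24 and 5.6 were labelled male but had 1160 and 1353 CPM of Xist, the transcript of the inactive X chromosome. They had 0.284 and 0.117 CPM of the Y chromosome gene Ddx3y. CKO 5.6 was labelled male at 0 h and female at 6 h. The main fit used the sex labels as given. T cell markers (Cd3e, Cd3d, Cd3g, Cd4 and Trac) summed to between 1529 and 1818 CPM in CKO and 1299.6 and 1753 CPM in CTL cells at 6 h. At 0 h their sums were higher, between 2940 and 3698 CPM in CKO and 2582 and 3533 CPM in CTL cells.

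The members' genes lie on 6 chromosomes of GRCm38, and in the annotation none shares an exon with another gene. Tnf (ENSMUSG00000024401, chromosome 17, 35199381 to 35202007, minus strand) lies between Ltb (35194439 to 35196320, plus strand) and Lta (35203165 to 35205351, minus strand). Fasl (ENSMUSG00000000817, 161780689 to 161788495, minus strand) and Tnfsf4 (161395409 to 161418410, plus strand) are both on chromosome 1, and Tnfsf14 (57189492 to 57194177, minus strand) is on chromosome 17 away from the other cluster. Cd40lg is on X, Tnfsf8 on chromosome 4, Tnfsf10 on chromosome 3 and Tnfsf11 on chromosome 14.

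RefSeq promoter sequences (GRCm38.p6) were matched for 8 of the 10 ligands and not for Cd40lg and Tnfsf4. The 3 neighbours on chromosome 17 are shown because Tnf and Lta rose with the beads and Ltb was not called higher, and Fasl because it was the ligand called lower in CKO cells. Each line gives up to 250 bases before the start, 5′ to 3′ on the gene's strand. Capitals mark matches on either strand to the NF-kB consensus and to TGGAAA, the core letters of NFAT sites. For Ltb the 68 bases nearest the start are left out because the gene annotation counts them as exon. The windows are chr17:35202008-35202257 (minus) for Tnf, chr17:35205352-35205601 (minus) for Lta, chr17:35194257-35194438 (plus) for Ltb and chr1:161788496-161788745 (minus) for Fasl.
Tnf promoter: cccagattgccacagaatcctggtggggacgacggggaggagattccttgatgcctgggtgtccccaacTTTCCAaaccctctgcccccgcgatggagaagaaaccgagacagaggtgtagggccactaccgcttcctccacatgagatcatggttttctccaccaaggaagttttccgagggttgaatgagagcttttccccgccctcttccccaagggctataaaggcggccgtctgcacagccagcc
Lta promoter: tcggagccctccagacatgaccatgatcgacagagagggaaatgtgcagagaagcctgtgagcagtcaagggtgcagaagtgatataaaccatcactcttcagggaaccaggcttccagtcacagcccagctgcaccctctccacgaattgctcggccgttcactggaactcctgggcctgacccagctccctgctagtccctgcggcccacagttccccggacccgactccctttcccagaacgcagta
Ltb promoter: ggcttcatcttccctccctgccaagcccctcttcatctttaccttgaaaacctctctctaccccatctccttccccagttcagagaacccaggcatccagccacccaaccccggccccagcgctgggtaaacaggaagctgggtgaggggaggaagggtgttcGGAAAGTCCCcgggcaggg
Fasl promoter: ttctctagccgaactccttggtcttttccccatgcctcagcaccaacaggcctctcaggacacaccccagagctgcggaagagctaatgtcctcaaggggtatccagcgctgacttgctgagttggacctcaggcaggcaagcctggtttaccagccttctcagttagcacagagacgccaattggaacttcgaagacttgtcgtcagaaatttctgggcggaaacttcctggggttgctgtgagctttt

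In these windows, searched on both strands, the NF-kB consensus was found once, in Ltb (positions −87 to −78, counted back from the base before the start). Over 32536 mouse promoters of 250 bases the share with that match was 7.28%. TGGAAA was found in Tnf (−181 to −176), Tnfsf10 (−134 to −129) and Tnfsf14 (−146 to −141), against 18.6% of promoters. TATAAA, the TATA box letters, was found on the gene's strand in Tnf (−29 to −24) and Lta (−167 to −162), against 12.3% for either strand. In Tnfsf11 it was found on the opposite strand (−32 to −27). TGANTCA, the AP-1 letters, was found in Tnfsf14 alone (−160 to −154), against 6.73%. No 2 of these matches overlapped. The Fasl and Tnfsf8 windows held none of the 4 motifs, which says nothing of sites elsewhere.

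The AU-rich nonamer TTATTTATT, the binding site of the Zfp36 (tristetraprolin) family of mRNA decay factors, was found in the 3′ UTRs of Tnf and Lta and in none of the other 8. Tnf held 5 copies in 764 bases, where 4.34% of 1199 UTRs of similar length had at least 1. Lta held 1 copy in 572 bases, where 3.09% of 1101 did. The Ltb 3′ UTR has only 174 bases, and 1.93% of 571 UTRs of similar length held the nonamer. Tnfsf4 and Tnfsf8, which were called higher at 6 h in both genotypes, held none. The sites are shown because they set Tnf and Lta apart from Ltb in sequence, with the nonamers in capitals. They lie at chr17:35199679-35199708 (minus) and chr17:35203404-35203433 (minus) of GRCm38.
Tnf site: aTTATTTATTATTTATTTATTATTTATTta
Lta site: tatggagagaaaagttaagTTATTTATTta
The shorter AU-rich letters ATTTA occurred 8 times in the Tnf 3′ UTR, 3 times in that of Lta, once in that of Fasl and not in that of Ltb. The cytosine-rich letters CCTCCC occurred once each in the 3′ UTRs of Tnfsf8 and Tnfsf14 and in none of the other 8. Of UTRs of similar length they were in 64.5% for Tnfsf8, 39.2% for Tnfsf14 and 37.3% for Fasl.

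Per kilobase of exon, which allows levels of different genes to be set side by side, Ltb was the most abundant ligand mRNA in every group. Its mean was 365 ± 22.1 CPM per kb in CKO and 320.4 ± 22.7 CPM per kb in CTL cells at 6 h, and 400.4 ± 57.3 and 397 ± 50.4 CPM per kb in CKO and CTL cells at 0 h (SD). In no group did a library of another ligand reach the range of Ltb. At 0 h Tnfsf8 and Cd40lg came next (67.6 ± 23.6 and 61.2 ± 6.06 CPM per kb in CKO, 41.0 ± 11.4 and 69.3 ± 8.66 CPM per kb in CTL cells), and their ranges overlapped in both genotypes. Lta, Tnf, Tnfsf11 and Tnfsf14 formed a middle group between 10.5 and 16.9 CPM per kb at 0 h, in which neighbours in the order overlapped. Tnfsf10, Fasl and Tnfsf4 followed in that order at 0 h in both genotypes, without overlap, and Tnfsf4 was the lowest at 0.435 ± 0.131 CPM per kb in CKO and 0.365 ± 0.119 CPM per kb in CTL cells.

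After 6 h Tnf came next to Ltb and Tnfsf8 in CKO (85.99 ± 50.01 CPM per kb) and next to Ltb in CTL cells (105 ± 40.1 CPM per kb). At 0 h it had 13.2 ± 2.86 CPM per kb in CKO and 14.8 ± 3.00 CPM per kb in CTL cells. At 6 h the ranges of Tnf, Tnfsf8 and Cd40lg overlapped, so their order is not fixed by these libraries. Tnfsf4 stayed the lowest in both genotypes (1.46 ± 0.435 CPM per kb in CKO, 1.66 ± 0.147 CPM per kb in CTL cells).

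**Figure D1:**
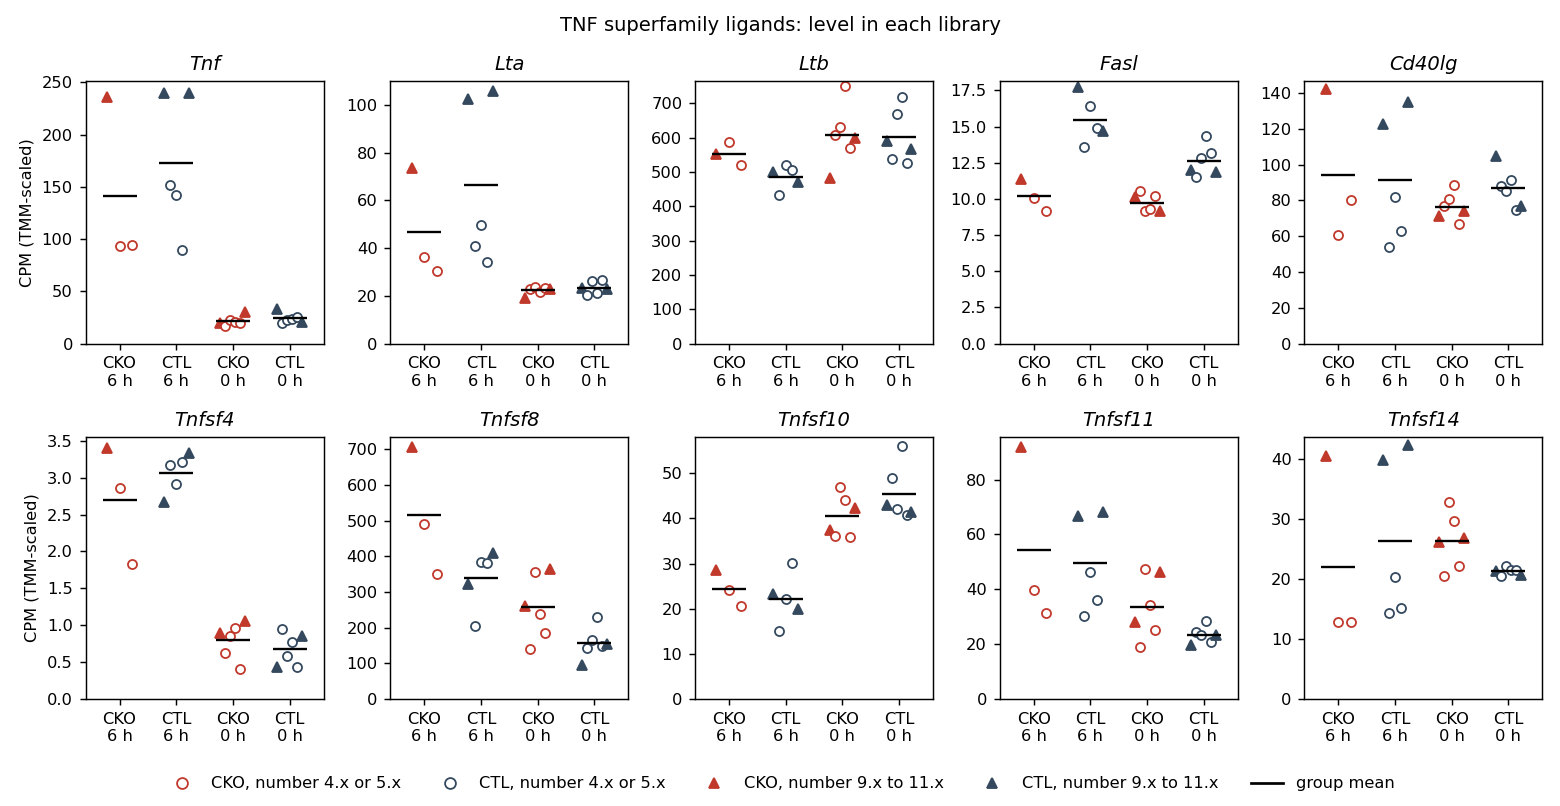
Level of each of the 10 ligands in every library (y axis, TMM-scaled CPM, each panel on its own scale starting at 0), by group on the x axis, with a black line at the group mean. Filled triangles are libraries whose number begins with 9, 10 or 11 and open circles those whose number begins with 4 or 5; at 6 h the 3 triangles lie above all 5 circles for Tnf, Lta, Cd40lg, Tnfsf11 and Tnfsf14, and the CKO points lie below all CTL points of the same time for Fasl.

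Several ligands changed over 6 h with beads, in both genotypes. In CKO cells 5 of 10 were called at an adjusted p under 0.05: Tnf, Lta, Tnfsf4 and Tnfsf8 rose and Tnfsf10 fell. In CTL cells 8 were called: Tnf, Lta, Fasl, Tnfsf4, Tnfsf8 and Tnfsf11 rose and Ltb and Tnfsf10 fell. The same test called 32.8% of all genes in CKO cells (19.6% higher, 13.1% lower). In CTL cells it called 63.4% (41.6% higher, 21.7% lower), so these counts stand against a broad response. Among the 14189 genes with a mean of at least 1 CPM more were called lower than higher. There 1467 were called higher and 3208 lower in CKO cells, and 2400 higher and 5525 lower in CTL cells. The ligands' median log2 fold change was 0.54 in CKO and 0.68 in CTL cells. Over all genes tested it was 0.12 in CKO and 0.31 in CTL cells (0.15 in CTL cells without CTL 6 h 4.24, the library of lowest depth), and over the 14189 genes with a mean of at least 1 CPM −0.12 in CKO and −0.20 in CTL cells. CPM ranges at 6 h and 0 h did not overlap for 4 ligands in CKO cells (3 higher, 1 lower) and 6 in CTL cells (4 higher, 2 lower). All genes without overlap made up 29.9% higher and 17.1% lower in CKO and 17.3% higher and 12.6% lower in CTL cells.

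Tnf, the founding inflammatory cytokine of the family, had the largest fold change of the 10 in both genotypes. In CKO cells it had 92.9, 94.4 and 236 CPM at 6 h, against a lowest of 16.4, a median of 20.2 and a highest of 30.3 CPM at 0 h. In CTL cells it had 89.7, 142, 152, 239.5 and 240.0 CPM at 6 h, against 19.6, 23.1 and 33.2 CPM (lowest, median, highest) at 0 h. Every 6 h library lay above every 0 h library of its genotype, and the log2 fold change was 2.69 ± 0.30 (SE) in CKO (adjusted p = 2.15e-06) and 2.84 ± 0.27 in CTL cells (adjusted p = 1.33e-07). Between libraries of the same number the 6 h over 0 h ratio of Tnf ran from 4.58 to 11.8 in the 3 CKO pairs and from 3.75 to 11.55 in the 5 CTL pairs.

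Lta, which encodes lymphotoxin alpha, rose less. It had 30.3, 36.1 and 73.4 CPM at 6 h in CKO cells, against 18.9, 23.0 and 23.9 CPM (lowest, median, highest) at 0 h. In CTL cells it had 34.2, 41.1, 49.8, 102 and 106 CPM at 6 h, against 20.2, 23.2 and 26.7 CPM at 0 h. No 6 h library overlapped the 0 h range, and log2 fold changes were 1.09 ± 0.30 in CKO (adjusted p = 0.00976) and 1.503 ± 0.26 in CTL cells (adjusted p = 8.67e-05). The call in CKO cells depended on 1 library: without CKO 6 h 11.18 the log2 fold change was 0.56 (adjusted p = 0.239), with the other 2 libraries still above the 0 h range.

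Ltb, the membrane partner of lymphotoxin alpha, was not called higher in either genotype. It had 520.4, 552 and 587 CPM at 6 h in CKO cells, against 482, 604 and 749 CPM (lowest, median, highest) at 0 h, and the ranges overlapped. In CTL cells it had 433, 471, 499, 505 and 519.9 CPM at 6 h, all below the 526.3, 579.9 and 718 CPM (lowest, median, highest) at 0 h. The log2 fold change was −0.08 ± 0.13 in CKO (adjusted p = 0.668) and −0.32 ± 0.11 in CTL cells (adjusted p = 0.0123). The fall in CTL cells depended on the scaling: with only genes of at least 1 mean CPM entering the scaling it was −0.08 (adjusted p = 0.492), and with RLE factors −0.24 (adjusted p = 0.0548). That filter also moved the median of these 14189 genes in this comparison to 0.03, against −0.20 with all 28082 genes in the scaling. Ltb stayed below 0 in CTL cells under every alternative run, between −0.44 and −0.08.

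**Figure D2:**
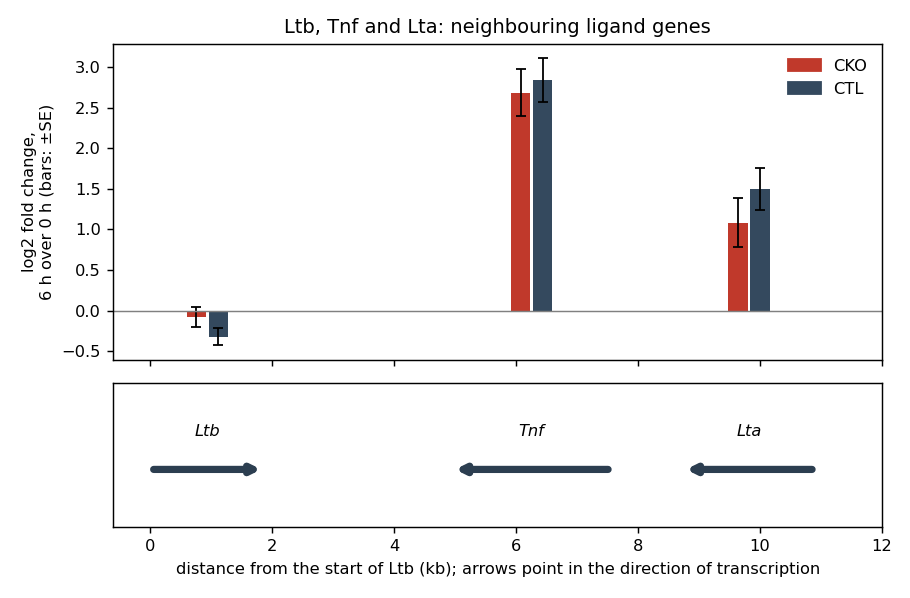
Upper panel: log2 fold change, 6 h over 0 h, with SE bars, of Ltb, Tnf and Lta in CKO (red) and CTL (dark blue) cells, drawn at the position of each gene; lower panel: the genes as arrows in the direction of transcription, with the distance from the start of Ltb in kb on the x axis. Tnf and Lta have positive values in both genotypes, and Ltb has −0.08 in CKO and −0.32 in CTL cells.

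Of the death ligands, Tnfsf10 (TRAIL) fell in both genotypes. It had 20.7, 24.1 and 28.6 CPM at 6 h in CKO cells, against 36.0, 39.9 and 46.9 CPM (lowest, median, highest) at 0 h, and 15.1, 19.9, 22.2, 23.2 and 30.1 CPM at 6 h in CTL cells, against 40.8, 42.5 and 56.1 CPM at 0 h. Neither genotype showed overlap, and log2 fold changes were −0.66 ± 0.16 in CKO (adjusted p = 0.00481) and −1.07 ± 0.14 in CTL cells (adjusted p = 4.28e-06). Fasl, the ligand of the death receptor Fas, had 9.17, 10.05 and 11.4 CPM at 6 h in CKO cells, against 9.14, 9.70 and 10.6 CPM (lowest, median, highest) at 0 h, a log2 fold change of 0.09 ± 0.11 (adjusted p = 0.582). In CTL cells Fasl rose slightly, with 13.6, 14.7, 14.9, 16.5 and 17.7 CPM at 6 h against 11.55, 12.4 and 14.4 CPM at 0 h (0.29 ± 0.09, adjusted p = 0.0117), and the ranges overlapped. This rise was no longer called without CTL 6 h 10.28 (0.21, adjusted p = 0.0642), CTL 0 h 5.6 (0.23, adjusted p = 0.0744) or CTL 0 h 9.20 (0.18, adjusted p = 0.131). It was also lost with no filter (0.25, adjusted p = 0.0691) and without CKO 0 h 4.29, 5.6 or 9.20 (0.18 in each fit, adjusted p between 0.152 and 0.159). Leaving out any of these 3 CKO libraries also moved the median of all genes in this comparison to 0.20, against 0.31 with all libraries, and the cause was not tested. With the scaling on genes of at least 1 mean CPM it was 0.53 (adjusted p = 0.000139).

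Among the costimulatory ligands, Tnfsf4 (OX40 ligand) had the second largest rise of the 10 ligands, from the lowest level among them. It had 1.83, 2.86 and 3.41 CPM at 6 h in CKO cells, against 0.408, 0.879 and 1.06 CPM (lowest, median, highest) at 0 h. In CTL cells it had 2.66, 2.91, 3.17, 3.21 and 3.34 CPM at 6 h, against 0.432, 0.680 and 0.950 CPM at 0 h. The groups did not overlap, and log2 fold changes were 1.83 ± 0.29 in CKO (adjusted p = 0.00016) and 2.16 ± 0.26 in CTL cells (adjusted p = 2.72e-06). These levels rested on 28 to 80 counts per library at 0 h in CKO and 30 to 69 in CTL cells.

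Tnfsf8 (CD30 ligand) rose to 351, 492 and 705 CPM at 6 h in CKO cells, against 140.5, 249.5 and 364 CPM (lowest, median, highest) at 0 h. In CTL cells it had 206, 324, 380.3, 384 and 408 CPM at 6 h, against 95.03, 152 and 229 CPM at 0 h. The outermost libraries overlapped in both genotypes, yet it was higher at 6 h in 3 of 3 CKO and 5 of 5 CTL pairs, with log2 fold changes of 1.16 ± 0.25 in CKO (adjusted p = 0.00181) and 1.06 ± 0.21 in CTL cells (adjusted p = 0.000292).

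Cd40lg, which carries help to B cells through CD40, and Tnfsf14 (LIGHT), a ligand of the herpesvirus entry mediator and the lymphotoxin beta receptor, were not called in either genotype. Cd40lg had 60.5, 80.3 and 142 CPM at 6 h in CKO cells, against 66.9, 75.6 and 88.6 CPM (lowest, median, highest) at 0 h, and 53.8, 63.0, 81.8, 123 and 135 CPM at 6 h in CTL cells, against 74.8, 86.5 and 105 CPM at 0 h. Tnfsf14 had 12.8, 12.8 and 40.4 CPM at 6 h in CKO cells, against 20.5, 26.5 and 32.8 CPM at 0 h, and 14.3, 15.1, 20.3, 39.8 and 42.2 CPM at 6 h in CTL cells, against 20.5, 21.3 and 22.2 CPM at 0 h. For both ligands the 6 h libraries lay on either side of the 0 h median. The log2 fold changes of Cd40lg were 0.32 ± 0.26 in CKO and 0.07 ± 0.22 in CTL cells (adjusted p = 0.36 and 0.803). Those of Tnfsf14 were −0.22 ± 0.35 in CKO and 0.30 ± 0.29 in CTL cells (adjusted p = 0.658 and 0.385). Without CKO 6 h 11.18 the log2 fold change of Tnfsf14 in CKO cells was called lower, at −1.05 (adjusted p = 0.047).

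Tnfsf11 (RANKL), known for driving osteoclast formation and lymphoid organ development, had 31.2, 39.9 and 92.0 CPM at 6 h in CKO cells, against 18.9, 31.2 and 47.5 CPM (lowest, median, highest) at 0 h. In CTL cells it rose to 30.3, 36.2, 46.3, 66.7 and 68.3 CPM at 6 h, against 19.8, 23.4 and 28.6 CPM at 0 h, without overlap. Its log2 fold change was 0.77 ± 0.31 in CKO (adjusted p = 0.0622) and 1.06 ± 0.27 in CTL cells (adjusted p = 0.00204). The CKO value was called with RLE factors (0.84, adjusted p = 0.0438), with DESeq2 (0.84, adjusted p = 0.0349) and with the scaling on genes of at least 1 mean CPM (0.90, adjusted p = 0.0291). Its size in CKO cells depended on 1 library: without CKO 6 h 11.18 it was 0.17 (adjusted p = 0.77).

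At 6 h the libraries of several ligands separated by the number in their titles, whose meaning the labels do not give. The 3 libraries numbered 9.20, 10.28 (both CTL) and 11.18 (CKO) lay above all 5 libraries numbered 4.24, 4.29, 5.13 (1 of each genotype) or 5.6 for Tnf, Lta, Cd40lg, Tnfsf11 and Tnfsf14. This split was seen in the values and then counted: it held for 5 of 10 ligands, against 10.8% of 14189 genes with a mean of at least 1 CPM and 6.01% of all genes tested. Tnf ran from 236 to 240.0 CPM in those 3 libraries and from 89.7 to 152 CPM in the other 5, and Lta from 73.4 to 106 CPM against 30.3 to 49.8 CPM. Tnfsf11 ran from 66.7 to 92.0 CPM against 30.3 to 46.3 CPM, and Cd40lg from 123 to 142 CPM against 53.8 to 81.8 CPM. For Tnfsf14 the ranges were 39.8 to 42.2 CPM and 12.8 to 20.3 CPM.

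Tnfsf14 differed in sign between the sets of numbers. Its mean log2 CPM at 6 h minus that at 0 h was 0.61 in CKO (1 against 2 libraries) and 0.97 in CTL cells (2 against 2) among the higher numbers, and −1.01 in CKO (2 against 4) and −0.38 in CTL cells (3 against 4) among the lower numbers. For Cd40lg the corresponding differences were 0.97 in CKO and 0.52 in CTL cells among the higher numbers, and −0.16 in CKO and −0.37 in CTL cells among the lower ones. Differences of Tnf were positive in both sets (3.26 in CKO and 3.19 in CTL cells among the higher numbers, 2.25 in CKO and 2.46 in CTL cells among the lower), as were those of Lta (1.81 in CKO and 2.16 in CTL, against 0.53 in CKO and 0.82 in CTL cells). In a fit with the set and its interaction with time as terms, chosen after seeing the data, 7 ligands were called in CKO cells, with Cd40lg (0.39, adjusted p = 0.0455) and Tnfsf11 (0.81, adjusted p = 0.00962) added to the 5. In CTL cells 9 were called, with Tnfsf14 added (0.30, adjusted p = 0.0361).

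**Figure D3:**
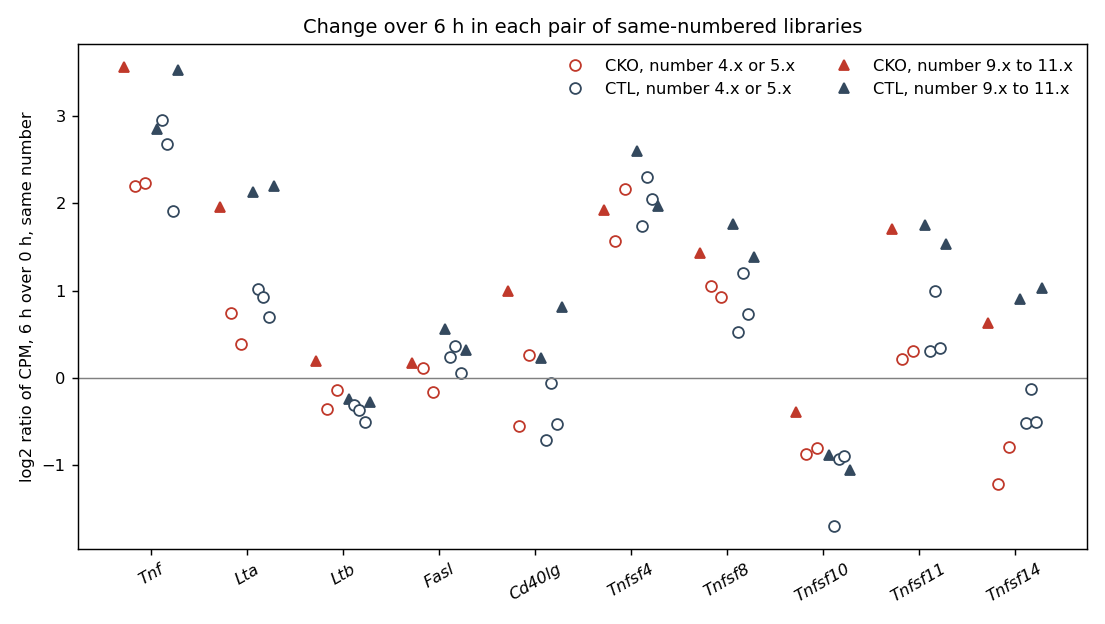
The log2 ratio of CPM, 6 h over 0 h, for each pair of libraries that share a number (y axis), by ligand (x axis), in CKO (red, 3 pairs) and CTL cells (dark blue, 5 pairs); triangles are numbers beginning with 9, 10 or 11 and open circles numbers beginning with 4 or 5. All pairs lie above 0 for Tnf, Lta, Tnfsf4, Tnfsf8 and Tnfsf11 and below 0 for Tnfsf10, while for Tnfsf14 the 3 triangles lie above 0 and the 5 circles below.

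All 5 T cell markers were called lower at 6 h in both genotypes, beside 13.1% of all genes in CKO and 21.7% in CTL cells. Of the 14189 genes with a mean of at least 1 CPM, 3208 in CKO and 5525 in CTL cells were called lower. The median log2 fold change of the T cell markers was −0.80 in CKO and −0.91 in CTL cells. Markers of other cells also shifted with time, though not every marker of each list. In CKO cells 5 of 5 myeloid, 3 of 5 B cell, 2 of 5 NK and innate lymphoid and 3 of 5 dendritic cell markers were called lower. The counts in CTL cells were 5, 5, 1 and 2, in the same order. In each genotype 1 dendritic cell marker was called higher, so a sum does not stand for every marker of its list. The 5 myeloid markers summed to between 7.85 and 17.9 CPM at 6 h in CKO cells, against 35.7 to 90.3 CPM at 0 h, and to between 7.83 and 16.4 CPM at 6 h in CTL cells, against 29.1 to 97.2 CPM at 0 h. Sums of the 5 B cell markers ran from 15.4 to 71.4 CPM at 6 h in CKO cells, against 28.7 to 157 CPM at 0 h, and from 12.1 to 26.8 CPM at 6 h in CTL cells, against 31.2 to 239 CPM at 0 h. Sums of the 5 NK and innate lymphoid markers ran from 11.9 to 17.1 CPM at 6 h in CKO cells, against 18.1 to 36.1 CPM at 0 h, and from 8.27 to 23.7 CPM at 6 h in CTL cells, against 8.20 to 38.5 CPM at 0 h. The 5 dendritic cell markers summed to between 20.8 and 42.8 CPM at 6 h in CKO cells, against 47.2 to 206 CPM at 0 h, and to between 13.6 and 46.9 CPM at 6 h in CTL cells, against 23.6 to 168 CPM at 0 h. None of these markers was at 0 in a whole group, and their part in the falls of Tnfsf10 and Ltb was not tested. The 5 erythroid and platelet markers summed to at most 2.11 CPM in any library.

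Between genotypes Fasl was the one ligand that was called. At 6 h it had 9.17, 10.05 and 11.4 CPM in CKO cells, against 13.6, 14.7, 14.9, 16.5 and 17.7 CPM in CTL cells. At 0 h it had a lowest of 9.14, a median of 9.70 and a highest of 10.6 CPM in CKO cells, against 11.55, 12.4 and 14.4 CPM in CTL cells. All CKO libraries lay below all CTL libraries at both times. The log2 fold change was −0.61 ± 0.12 at 6 h (adjusted p = 0.0222), or 0.656 of the CTL level, and −0.41 ± 0.10 at 0 h (adjusted p = 0.0869; unadjusted p = 0.000545), or 0.754 of the CTL level. In the 5 pairs of same-numbered libraries at 0 h the CKO over CTL ratio of Fasl ran from 0.647 to 0.914.

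The same test called 0.292% of all genes at 6 h, 0.0392% in the lower direction, and 0.424% at 0 h. Genes whose CKO range lay wholly below the CTL range made up 3.05% at 6 h, 0.979% at 0 h and 0.203% at both times, and Fasl was the one ligand among these at either time. Ltb was the one ligand with all CKO libraries above all CTL libraries at 6 h, as were 3.65% of all genes, and its log2 fold change was 0.18 ± 0.13 (adjusted p = 0.463). At 0 h no ligand lay wholly above, against 0.951% of all genes.

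The direction of the Fasl difference held under each alternative run, between −0.71 and −0.54 at 6 h and between −0.49 and −0.36 at 0 h, but its side of the threshold did not. At 6 h the call was lost with the library number as a replicate block (−0.68, adjusted p = 0.114), with the 6 h libraries alone in the fit (−0.54, adjusted p = 0.652), and with no filter (−0.59, adjusted p = 0.125). It was also lost without the CKO 0 h libraries 4.24 and 5.6 (−0.56, adjusted p = 0.134) and in 8 of the 20 fits that left out 1 library. Those 8 left out CKO 6 h 5.13 or 5.6, CTL 6 h 4.29 or 10.28, CKO 0 h 4.29, 5.6 or 9.20, or CTL 0 h 5.6, with adjusted p between 0.058 and 0.492. At 0 h a call was gained with DESeq2 (−0.40, adjusted p = 0.00368) and in the fits without CTL 6 h 4.24 (−0.39, adjusted p = 0.0446) or CTL 6 h 10.28 (−0.44, adjusted p = 0.0452). Within the sets of numbers the Fasl difference in mean log2 CPM was −0.50 among numbers beginning with 9, 10 or 11 and −0.64 among those beginning with 4 or 5 at 6 h, and −0.31 and −0.40 in the same sets at 0 h.

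None of the other 9 ligands was called between genotypes at 6 h, and none of the 10 at 0 h, where 1 (Fasl) had an unadjusted p under 0.05 and DESeq2 called that 1. The ligands' median log2 fold change was −0.09 at 6 h and −0.09 at 0 h, against −0.29 at 6 h (−0.11 without CTL 6 h 4.24) and 0.05 at 0 h over all genes tested and 0.07 at 6 h and −0.01 at 0 h over genes with a mean of at least 1 CPM. Tnfsf8 came nearest to a call after Fasl, with means of 516 ± 178 CPM in CKO and 340.3 ± 81.4 CPM in CTL cells at 6 h, and of 257 ± 90.0 CPM in CKO and 156 ± 43.5 CPM in CTL cells at 0 h (SD). Its log2 fold change was 0.55 ± 0.25 at 6 h (adjusted p = 0.389) and 0.45 ± 0.23 at 0 h (adjusted p = 0.686), the groups overlapped at both times, and in the 5 pairs at 0 h the ratio ran from 0.986 to 2.34.

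For Tnf the CKO minus CTL log2 fold change was −0.28 ± 0.32 at 6 h and −0.12 ± 0.28 at 0 h, and for Lta −0.53 ± 0.32 at 6 h and −0.12 ± 0.28 at 0 h. The Lta value at 6 h depended on single libraries: it was −0.999 without CKO 6 h 11.18 and −0.24 without CKO 6 h 5.6. Tnfsf10 had 0.13 ± 0.16 at 6 h and −0.27 ± 0.14 at 0 h, and Tnfsf11 0.07 ± 0.32 at 6 h and 0.36 ± 0.29 at 0 h. Tnfsf14 had −0.30 ± 0.36 at 6 h and 0.22 ± 0.31 at 0 h, and Tnfsf4 −0.23 ± 0.31 at 6 h and 0.10 ± 0.27 at 0 h. Cd40lg had 0.04 ± 0.26 at 6 h and −0.21 ± 0.23 at 0 h, and Ltb −0.07 ± 0.11 at 0 h. The 95% intervals leave room for differences that were not called here. At 6 h that of Tnf ran from −0.94 to 0.39, that of Lta from −1.20 to 0.14 and that of Cd40lg from −0.51 to 0.59.

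**Figure D4:**
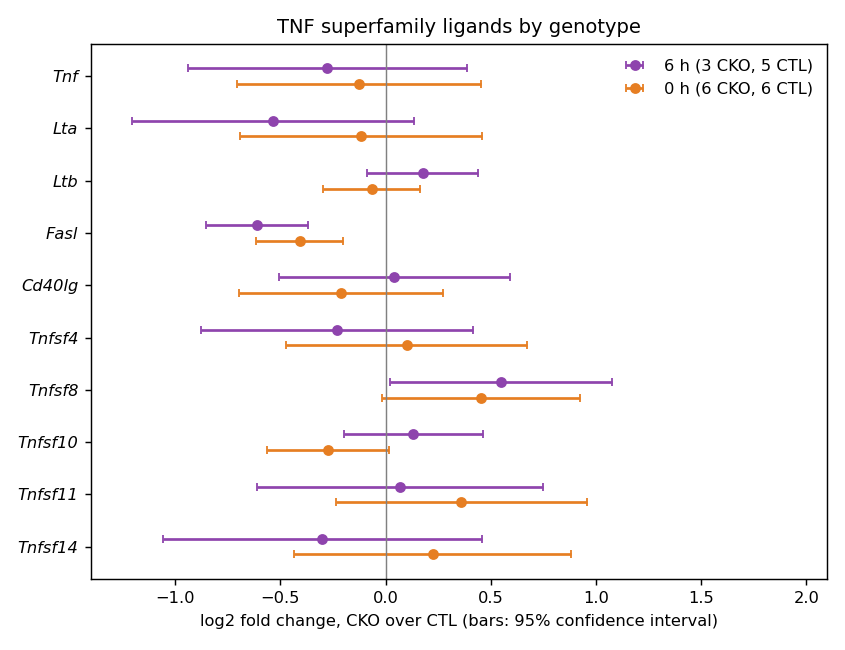
The log2 fold change, CKO over CTL (x axis), of each ligand (rows) with its 95% confidence interval from the edgeR fit, at 6 h (purple, 3 CKO and 5 CTL libraries) and at 0 h (orange, 6 and 6). The intervals of Fasl lie below 0 at both times and that of Tnfsf8 lies above 0 at 6 h; before adjustment over all genes these are the ligands with p under 0.05 at either time.

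All 4 regulatory T cell markers had positive log2 fold changes, CKO over CTL, at both times, and 1 was called at 0 h and 2 at 6 h. Their 4 genes (Foxp3, Il2ra, Ikzf2 and Gpr83) summed to between 384 and 585 CPM in CKO and 232 and 419 CPM in CTL cells at 6 h, and to between 191 and 589 CPM in CKO and 136 and 257 CPM in CTL cells at 0 h, and none was at 0. At 6 h Gpr83 (1.35 ± 0.26, adjusted p = 0.0244) and Foxp3 (1.29 ± 0.27, adjusted p = 0.0488) were called higher, as was Gpr83 at 0 h (1.18 ± 0.23, adjusted p = 0.0227). All genes called higher made up 0.253% at 6 h and 0.231% at 0 h. At 0 h all 5 markers each of B, NK and innate lymphoid, myeloid and dendritic cells were also higher in CKO cells. Their median log2 fold changes were 0.84, 1.68, 0.68 and 0.65, against 0.69 for the regulatory T cell markers. The counts higher at 6 h were 5, 4, 3 and 3, in the same order. None of these other markers was called at either time. The part of these markers in the Fasl and Tnfsf8 values was not tested. Neither CD8 marker was called between genotypes; they summed to between 14.6 and 21.1 CPM in CKO and 12.03 and 17.7 CPM in CTL cells at 6 h. The 5 stromal and endothelial markers, mostly Pecam1, summed to between 251 and 355 CPM in CKO and 168 and 244 CPM in CTL cells at 6 h, with Ccl19 at 0 in both. The sum does not stand for the list: of the 4 markers tested, 1 was higher in CKO cells at 6 h. Their median log2 fold change was −0.97, and 0 were called. At 0 h the 5 markers summed to between 256 and 338 CPM in CKO and 231 and 277 CPM in CTL cells. There all 4 tested were higher in CKO cells (median 1.02), and 0 were called. The part of these markers in the Fasl values was not tested either.

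Whether loss of Pcbp2 changed the response to the beads was tested as the difference between both responses, CKO minus CTL. No ligand was called and no ligand had an unadjusted p under 0.05; of all genes 0.0% were called, with 2725 at an unadjusted p under 0.05, and DESeq2 likewise called 0. The ligands' median was −0.18, against −0.27 over all genes tested and 0.08 over genes with a mean of at least 1 CPM. The all-gene median depended on CTL 6 h 4.24: without that library it was −0.04, and with the replicate block −0.06. Tnfsf10 had the smallest p, with 0.40 ± 0.21 (95% interval −0.03 to 0.84, adjusted p = 0.465). For Tnf the difference was −0.15 ± 0.40 (−0.996 to 0.69) and for Lta −0.42 ± 0.41 (−1.27 to 0.43). The Lta difference was −0.94 without CKO 6 h 11.18 and −0.04 without CTL 6 h 10.28. These 95% intervals leave room for differences of either sign, and a call also depends on the adjustment over all genes. Calls made in CTL and not in CKO cells (Fasl, Ltb and Tnfsf11) are therefore not shown to differ between genotypes.

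Of the 11 receptors of these ligands, 10 passed the filter, and none was called between genotypes. Over 6 h 4 of the 10 were called in CKO and 5 in CTL cells, beside 32.8% of all genes in CKO and 63.4% in CTL cells. In CKO cells Tnfrsf4 (OX40, the receptor of Tnfsf4) rose by 1.74 ± 0.28, Fas by 0.54 ± 0.11 and Tnfrsf10b (the TRAIL receptor) by 0.55 ± 0.18 on the log2 scale. The TNF receptor gene Tnfrsf1a fell by 0.87 ± 0.13. In CTL cells the same 4 were called with log2 fold changes of 2.11 ± 0.25, 0.84 ± 0.10, 0.66 ± 0.15 and −1.07 ± 0.10, in the same order. The lymphotoxin beta receptor gene Ltbr also fell there (−1.35 ± 0.33), with 0.551 ± 0.115 CPM at 6 h and 1.37 ± 0.631 CPM at 0 h. Per kilobase of exon Tnfrsf4 had the highest mean of the list at 6 h, with 162 ± 61.9 CPM per kb in CKO and 128 ± 12.5 CPM per kb in CTL cells. At 0 h it was Tnfrsf14, the receptor of LIGHT, with 88.6 ± 11.2 CPM per kb in CKO and 92.6 ± 33.9 CPM per kb in CTL cells. Fas, the receptor of Fasl, had 0.38 ± 0.10 between genotypes at 0 h (adjusted p = 0.155).

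The other 8 ligands of the superfamily were scarce in these cells. Tnfsf9, the most abundant of them, had 7.45 ± 1.61 CPM in CKO and 6.75 ± 1.06 CPM in CTL cells at 6 h, and 5.62 ± 1.98 CPM in CKO and 4.76 ± 1.02 CPM in CTL cells at 0 h. Over 6 h 1 of the 8 was called in CKO and 4 in CTL cells, beside 32.8% of all genes in CKO and 63.4% in CTL cells. In CKO cells this was Cd70 (1.82 ± 0.52). In CTL cells these were Tnfsf15 (3.53 ± 0.55), Cd70 (2.58 ± 0.49), Tnfsf18 (2.13 ± 0.43) and Tnfsf9 (0.49 ± 0.20). All were higher at 6 h. Cd70, Tnfsf15 and Tnfsf18 had group means under 2 CPM, and the CTL 6 h means of Tnfsf15 (1.96 ± 2.40 CPM) and Tnfsf18 (1.33 ± 1.25 CPM) had SDs as large as or close to the mean. The CTL 6 h medians of Tnfsf15 and Tnfsf18 were 0.789 and 0.859 CPM, and their highest values 6.23 and 3.53 CPM. Both highest values came from CTL 6 h 4.24, the library of lowest depth, so these log2 fold changes rest in part on 1 library. None of the 8 was called between genotypes.

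Transcription factors and signalling genes upstream and downstream of the ligands were counted against the same shares of all genes called over time (32.8% in CKO, 63.4% in CTL cells). All 6 EGR and NR4A factors, early genes of antigen receptor signalling, rose in both genotypes, for example Nr4a3 (4.05 ± 0.23 in CKO, 4.22 ± 0.22 in CTL cells) and Nr4a1 (2.97 ± 0.27 in CKO, 3.32 ± 0.25 in CTL cells). Of 8 NF-kB and NFAT factors 6 were called in CKO (5 higher, 1 lower) and 8 in CTL cells (5 higher, 3 lower). Nfkb2 stood at 1.97 ± 0.22 in CKO and 1.80 ± 0.19 in CTL cells and Nfatc2 at −1.29 ± 0.21 in CKO and −1.80 ± 0.18 in CTL cells. Of 13 adaptors and effectors 8 were called in CKO (5 higher, 3 lower) and 5 in CTL cells (1 higher, 4 lower). Among them were the apoptosis inhibitor Birc3 (1.44 ± 0.13 in CKO, 1.26 ± 0.11 in CTL cells) and Traf5, an adaptor of costimulatory receptors (−0.70 ± 0.11 in CKO, −1.01 ± 0.09 in CTL cells). None of these 27 genes was called between genotypes.

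Of 12 regulators of AU-rich and cytokine mRNA 2 were called in CKO cells, both higher, and 7 in CTL cells (2 higher, 5 lower). The endonuclease gene Zc3h12a (regnase-1) rose by 0.88 ± 0.15 in CKO and 0.81 ± 0.13 in CTL cells, and Zc3h12d by 0.83 ± 0.18 in CKO and 0.56 ± 0.16 in CTL cells. Tia1 (−0.63 ± 0.12) and Zfp36l2 (−0.89 ± 0.23), whose family binds the AU-rich nonamer, fell in CTL cells. Of 6 proteases and their partners that release TNF ligands from the membrane, edgeR called 0 in CKO cells, where 0 had an unadjusted p under 0.05. In CTL cells 3 were called, all lower: Adam17, the TNF-converting enzyme (−0.35 ± 0.10), its partner Rhbdf2 (−0.51 ± 0.13) and Sppl2b (−0.38 ± 0.15). Between genotypes none of these 18 genes was called; Rhbdf2 had 0.64 ± 0.15 at 6 h (adjusted p = 0.0957).

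The genes most like each ligand over the 20 libraries were found by Pearson's r of log2 CPM against 9867 protein-coding genes. These values are a description, since all points share the 4 groups and the library scaling. Tnf was nearest to Nfkbid (r = 0.985) and Il2 (r = 0.983), Lta to Shmt1 (0.973) and Tma16 (0.971), and Tnfsf4 to Odc1 (0.957) and Cxcl10 (0.953). Tnfsf8 was nearest to Lrrc8d (0.953) and Hif1a (0.944), Tnfsf11 to Stx6 (0.952) and Nol10 (0.939), and Tnfsf10 to Podnl1 (0.961) and Themis (0.960). Tnfsf14 came with Alg8 (0.911) and Mthfd2 (0.904), Cd40lg with Prmt5 (0.907) and Iars (0.905), and Ltb with Dcps (0.891) and Commd1 (0.890). The lowest values were those of Fasl, with Smyd2 (0.833) and Nfix (0.832).

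For deviations from the group means, which leave out time and genotype, the nearest genes were Naf1 for Tnfsf14 (r = 0.975), Ltv1 for Cd40lg (0.962), Eea1 for Tnfsf8 (0.962), Spry1 for Tnfsf11 (0.957) and Shmt1 for Lta (0.933). Lower values were those of Spr for Ltb (0.928), Thg1l for Tnf (0.911), Gbp5 for Tnfsf10 (0.9001), Prrg4 for Tnfsf4 (0.831) and Zfp1 for Fasl (0.816). Among the ligands themselves the highest correlations of these deviations were 0.914 between Cd40lg and Tnfsf14, 0.910 between Lta and Tnfsf14 and 0.870 between Tnfsf11 and Tnfsf14. Next came 0.835 between Tnf and Tnfsf14, 0.828 between Lta and Cd40lg, 0.827 between Tnf and Lta and 0.806 between Tnfsf8 and Tnfsf11. Of these ligands Tnfsf8 did not separate by number at 6 h.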

How the data were processed

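The authors deposited a table of raw whole-number counts, 1 column for each of 20 libraries and 1 line for each Ensembl gene. Per the submitters' processing notes the tools were Subread 1.5.2, featureCounts, STAR 2.5.2b and Trimmomatic 0.36, with the mouse build GRCm38. For the annotation release and the strand setting nothing is stated in the sources used here. Libraries were stranded and poly(A)-selected, per the labels' protocols. Of 49315 IDs, 49056 matched GENCODE M21. Tests used edgeR 4.0.16 under R 4.3.3 (filterByExpr with minimum count 10 and minimum total 15, TMM, robust glmQLFit, glmQLFTest) over all 20 libraries, with group and labelled sex as terms. Every adjusted p of the main fit is Benjamini-Hochberg over 28082 genes, two-sided, with calls under 0.05. Alternatives with another filter or fewer libraries adjusted over their own sets of genes, and DESeq2 used its own adjusted p. The method was tested on simulated data. Levels are CPM on TMM-scaled library sizes. Values after ± are SE for log2 fold changes and SD for levels.

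Whether numbers pair libraries was checked on deviations from group means. Same-numbered libraries correlated at 0.304 to 0.628 in 5 pairs at 0 h. Over time the values were 0.319 to 0.502 in 5 CTL pairs and 0.176 to 0.493 in 3 CKO pairs. Libraries of different numbers were not compared, so these values alone do not show that numbers pair single libraries. CKO and CTL at 6 h share 1 number. The fit of all libraries had no term for the number, and the replicate block was run as an alternative. The numbers come from the titles. The members and lists were chosen with earlier results of these data known. Named were all 10 ligands, other family members that were called or most abundant, up to 4 called genes of each other list, and the genes nearest to each ligand by r. The precision of a value rests on the spread between libraries.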

Additional observations from a re-analysis of the deposited data

How the results depend on the processing

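The alternatives were RLE factors, no filter, a filter at a mean of 1 CPM, DESeq2 1.42.0, no sex term, the Ddx3y level in place of the sex label, a replicate block, only the groups compared, leaving out the CKO 0 h libraries 4.24 and 5.6, leaving out each library in turn and, chosen after seeing the data, the block without a sex term and the number set with its interaction with time. The number of ligands called at 6 h between genotypes, 1 in the fit of all libraries, was 0 with no filter, with the replicate block, with only the groups compared, without the CKO 0 h libraries 4.24 and 5.6, and with the block and no sex term. At 0 h the count of 0 became 1 with DESeq2. Leaving out 1 library gave 0 to 1 ligands called at 6 h, 0 to 1 at 0 h, 5 to 6 over time in CKO, 7 to 8 over time in CTL cells and 0 for the difference of responses. With the replicate block the counts over time stayed at 5 in CKO and 8 in CTL cells, and apart from Fasl at 6 h no ligand's call changed.

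Of the values of single ligands under these alternatives, 1456 kept their direction and side of the threshold, 24 lost a call, 13 gained one and 47 changed sign. Those that changed sign were not called in either fit. Cd40lg over time in CTL cells (0.07) was −0.040 with the replicate block, −0.018 without the CKO 0 h libraries 4.24 and 5.6 and −0.028 with the block and no sex term, and ran from −0.13 to 0.24 with 1 library left out. With the 1 CPM filter Cd40lg at 6 h was −0.044 (−0.38 to 0.29 with 1 library left out), Tnfsf11 at 6 h −0.015 (−0.46 to 0.36) and Ltb over time in CKO cells 0.037. Ltb at 0 h (−0.07) was 0.013 with no sex term, 0.0031 with the Ddx3y level, 0.0043 with the replicate block and 0.051 with the block and no sex term. The difference of responses of Tnfsf8 (0.09) was −0.012 with the 1 CPM filter, −0.12 with no sex term, −0.028 with the Ddx3y level, −0.21 with the replicate block, −0.10 without the CKO 0 h libraries 4.24 and 5.6 and −0.088 with the block and no sex term, and −0.10 to 0.27 with 1 library left out. With 1 library left out, other values that crossed 0 were Cd40lg over time in CKO cells (−0.16 to 0.58) and in the difference of responses (−0.23 to 0.53), Tnf at 6 h (−0.89 to 0.046) and in the difference (−0.84 to 0.095), Tnfsf11 in the difference (−0.89 to 0.039), Tnfsf14 over time in CKO (−1.05 to 0.068) and CTL cells (−0.038 to 0.47) and at 6 h (−1.04 to 0.022), and Tnfsf4 at 0 h (−0.0009 to 0.23). The cause was not tested.

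Over all genes, 119 called at 0 h between genotypes became 421 with DESeq2, 198 with no sex term, 235 with the Ddx3y level, 290 with the replicate block, 200 with only the groups compared and 220 with the block and no sex term (49 to 283 with 1 library left out). At 6 h 82 became 432 with DESeq2, 126 with the 1 CPM filter, 52 with the replicate block, 8 with only the groups compared and 46 with the block and no sex term (16 to 212). Over time the 1 CPM filter, which tests fewer genes, gave 4836 in CKO and 7417 in CTL cells, against 9203 and 17791. With 3 CKO libraries at 6 h, small differences are beyond the reach of these data.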
